A study of Homo sapiens with 4 samples.

Results

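Keratins are the intermediate filament proteins of epithelial cells, and 10 of their genes were followed here across 4 RNA-seq libraries of HT8 cells. The 10 were a list of gene symbols that was fixed with earlier results of these data known. KRT7, KRT8, KRT18, KRT19, KRT23 and KRT80 made up the 6 simple epithelial keratins, and KRT5, KRT13, KRT15 and KRT17 the 4 basal or squamous ones. They are 10 of 55 protein-coding keratin genes and of 58735 genes in the files. HT8 is labelled a colon cancer cell line. A control group of 2 libraries was set against 2 libraries whose genotype label is PPDPF knockdown and whose source name is HT8-cas1. PPDPF is a gene named for pancreatic progenitor differentiation. The sources used here name neither the agent meant to lower it nor separate cultures for the libraries within a group. The p-values therefore cover just the scatter among these 4 libraries, which may be technical.

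A keratin filament is an obligate heteropolymer, built from pairs of an acidic type I chain and a basic type II chain. KRT8 is the type II and KRT18 the type I chain of simple, single-layered epithelia such as the gut lining, where KRT19 and KRT20 are further type I chains. Basal cells of stratified epithelia carry KRT5 with KRT14 or KRT15, KRT13 pairs with KRT4 in non-cornified squamous layers such as the oesophagus, and KRT17 is known from skin appendages and wounded epidermis. Pathologists use keratin profiles to tell carcinomas apart, and colorectal carcinomas are typically positive for KRT20 and negative for KRT7.

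The sequence that makes these genes a family also bears on how their reads can be told apart. Every one of the 10 encodes a helix initiation motif at the start of its coiled-coil rod. The stretch of 48 coding bases for it is given from the GENCODE 29 principal transcript of 7 of them (the transcript that the APPRIS annotation ranks first), the type II gene KRT80 first and the 6 type I genes after it, because it shows how alike the type I genes are. Capitals mark the 20 bases that are identical in all 10 genes.
KRT80: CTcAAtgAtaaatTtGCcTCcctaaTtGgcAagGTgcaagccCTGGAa
KRT18: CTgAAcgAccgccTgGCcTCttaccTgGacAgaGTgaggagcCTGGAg
KRT19: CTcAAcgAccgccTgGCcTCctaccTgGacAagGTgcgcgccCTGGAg
KRT23: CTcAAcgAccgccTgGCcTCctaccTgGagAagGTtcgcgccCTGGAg
KRT13: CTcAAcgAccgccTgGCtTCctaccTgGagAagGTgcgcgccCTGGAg
KRT15: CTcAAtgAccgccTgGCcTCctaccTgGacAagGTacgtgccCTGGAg
KRT17: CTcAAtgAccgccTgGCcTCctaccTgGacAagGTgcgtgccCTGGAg
Among the 15 pairs of type I genes the number of identical bases ran from 38 to 47 of 48, with a median of 44. KRT15 and KRT17 were the closest pair, at 47. The 6 pairs of type II genes shared 34 to 46 bases and the 24 pairs of a type I with a type II gene 25 to 35, so these ranges overlap, and KRT80 is in the lowest type II pairs. Over whole principal transcripts the overlap with other genes was uneven. Of all stretches of 50 bases, 47.6% of those in KRT18 and 36.9% of those in KRT8 occurred in a transcript of another gene, against 16.0% for KRT17, 18.4% for KRT13, 10.8% for KRT7 and 1.79% for KRT19. KRT8 was the gene that shared most with KRT18 (21.5%), because the 2 genes lie on opposite strands of chromosome 12 and their annotated models overlap over 1084 bases (GRCh38, 52948871 to 52949954). The sources used here do not give a strand setting, and without one reads from that overlap cannot be told apart. KRT8P3, a processed pseudogene, shared most with KRT8 (19.0%), KRT7-AS with KRT7 (10.4%) and KRT17P1 with KRT17 (9.36%).

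The libraries held 17348315 and 19479906 reads in genes for control and 17330674 and 17069628 for the libraries labelled knockdown. PPDPF itself was not lower in the latter, at 237 and 266 FPKM in control and 281 and 283 FPKM in the knockdown-labelled libraries (log2 fold change 0.16, limma adjusted p = 0.0940). The groups are therefore named by their labels throughout, and a rise or fall is that of the libraries labelled knockdown relative to control. FPKM scales the reads of a gene to its exon length and to a total for the library. The total implied by the deposited FPKM differed from the reads in genes by 1.37% and 0.895% in control. In the knockdown-labelled libraries it differed by -0.415% and -0.664%, which lifts their FPKM slightly against control for every gene. Levels are means ± SD of n = 2 libraries per group, and log2 fold changes are of FPKM + 1, which understates the change of low genes. Folds and fractions of control are these log2 values put back on the plain scale. They are therefore of FPKM + 1 too and can differ from the ratio of the printed mean FPKM, most for low genes. A gene was tested at a mean of at least 1 FPKM over the 4 libraries, with limma across all such genes, and called at a Benjamini-Hochberg adjusted p under 0.05. Of 11 colon epithelial markers 8 were expressed highly enough to test, EPCAM at 187 ± 5.53 and 199 ± 6.69 FPKM among them. LGALS4, KRT20, CDX1 and VIL1 rose and CDH1 fell. That is 4 risen and 1 fallen of the 8, beside 16.8% and 13.0% of all tested genes. KRT20 reached the filter only through the knockdown-labelled libraries, and EPCAM, CDX2 and CDH17 did not pass the test. CDX2, on chromosome 13, had a log2 fold change of -0.17. Of the 17 other tested genes within 2 Mb of it, 13 rose and 0 fell, at a median of 0.46. The part of that regional shift in the CDX2 value was not tested. CEACAM5, MUC2 and GPA33 lay under the filter, with means of 0.688, 0.082 and 0.097 FPKM over the 4 libraries. The 7 fibroblast markers summed to 0.385 to 0.730 FPKM per library, the 4 endothelial markers to 0.0456 to 0.185 and the 6 leukocyte markers to 0.907 to 2.12. The fibroblast and leukocyte sums were lower in both knockdown-labelled libraries than in both controls. Of these 17 genes only CD14 was tested, and it fell (1.57 and 1.86 FPKM against 0.860 and 0.907, limma adjusted p = 0.0335), a call lost whichever library was left out (0.0769 to 0.135). The part of such cells in the keratin values was not tested. COL1A2, DCN, PTPRC, CD3E, MS4A1, KDR and CDH5 were listed at 0 in every library.

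Simple keratins dominated the HT8 profile in both groups. KRT8, KRT18 and KRT19 together made up 98.3% ± 0.159 of the summed FPKM of the 10 genes in control and 98.9% ± 0.0785 in the knockdown-labelled libraries. Of the 10, 7 were expressed highly enough to test, and 3 were called. KRT8 and KRT19 rose and KRT17 fell, so that 2 rose and 1 fell, beside 16.8% and 13.0% of the 12777 genes tested (29.9% in either direction). The members were chosen with earlier results of these data known, so these counts beside all tested genes are no test. The other 4 tested members, KRT18, KRT80, KRT7 and KRT13, did not pass the test, and KRT23, KRT15 and KRT5 lay under the filter. The median log2 fold change was 0.11 over the 5 tested simple keratins, -0.35 over the 2 tested basal or squamous ones and 0.0011 over all tested genes. The -0.35 rests on KRT17 (-0.68), since KRT13 had -0.027. In the fit with no filter KRT15 and KRT5 had 0.30 and 0.030 (limma adjusted p = 0.279 and 0.637). The groups did not overlap in 6 of the 7 tested members, beside 69.7% of all tested genes. KRT8, KRT18 and KRT19 were the 3 with higher knockdown-labelled values and KRT80, KRT7 and KRT17 the 3 with lower ones, beside 35.9% and 33.8%. With no filter on low values 0 of the 10 were called (limma), beside 6.45% of all genes in that fit, although 4 had an unadjusted p under 0.05. limma-voom on recovered reads, the other tool run, called 5 of the 7, beside 40.8% of all tested genes.

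**Figure D1:**
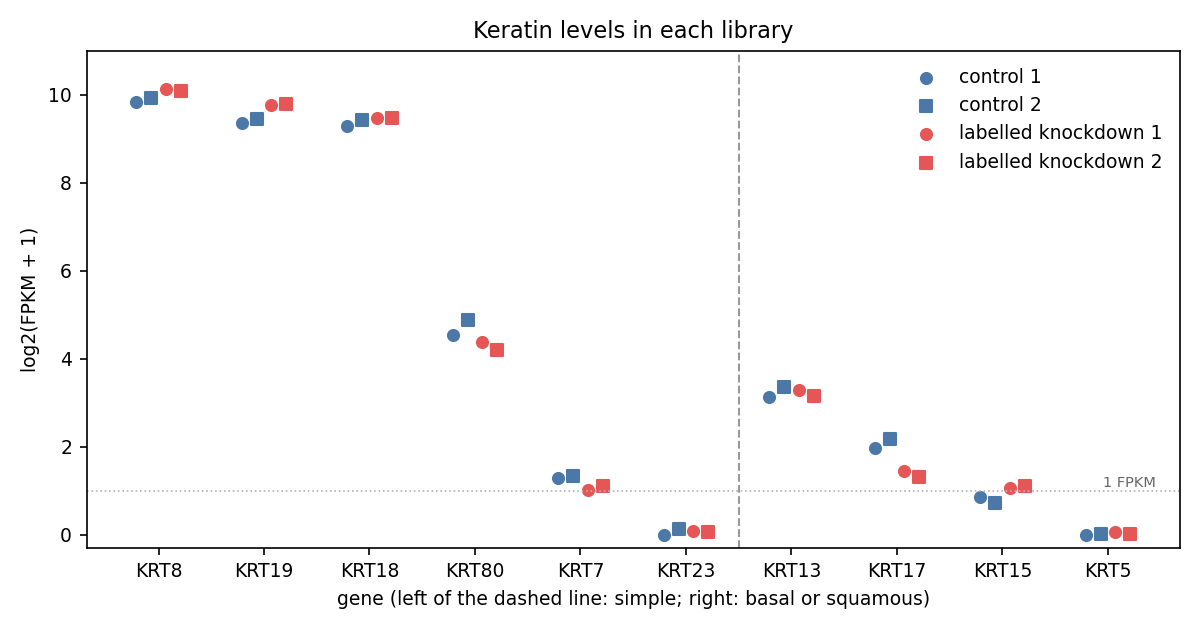
Level of each of the 10 keratins as log2(FPKM + 1) (vertical axis) in the 4 libraries (blue for control, red for labelled knockdown; circles are replicate 1, squares replicate 2), simple keratins left of the dashed line and 1 FPKM at the dotted one. KRT8, KRT19 and KRT18 lie far above the rest, and KRT17 is lower and KRT19 higher in both libraries labelled knockdown than in both controls.

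KRT8, the type II partner of the simple filament, was the most abundant member. Its level was 917 and 977 FPKM in the controls and 1121 and 1081 FPKM in the knockdown-labelled libraries (ENSG00000170421, GRCh38 chromosome 12, 52897187 to 52949954). Both libraries labelled knockdown lay above both controls, so KRT8 rose from 947 ± 42.3 to 1101 ± 28.5 FPKM, a log2 fold change of 0.22 (SE 0.042, limma adjusted p = 0.0195). The call rested on which libraries were kept. It was lost without control replicate 1 (limma adjusted p = 0.0674), knockdown replicate 1 (0.0825) or knockdown replicate 2 (0.0520) and with no filter (0.206), and quantile normalization raised the log2 fold change to 0.38.

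KRT19, the smallest keratin, which lacks most of the tail domain, kept its call in 10 of 11 other settings. It had 656 and 695 FPKM in control and 875 and 882 FPKM in the knockdown-labelled libraries (ENSG00000171345, chromosome 17, 41523617 to 41528308). The groups were well separated, and KRT19 rose from 675 ± 27.0 to 878 ± 5.36 FPKM, which is 1.30-fold (log2 fold change 0.38, SE 0.037, limma adjusted p = 0.00306). Whichever library was left out the adjusted p stayed between 0.0112 and 0.0218. With no filter it was 0.0571, which ended the call.

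KRT18, the type I partner of KRT8, did not pass the test. Its 4 values were 627 and 690 FPKM in control and 713 and 709 FPKM in the knockdown-labelled libraries (ENSG00000111057, chromosome 12, 52948871 to 52952901). The groups did not overlap, but the gap between them was smaller than that between the controls. The log2 fold change was 0.11 (SE 0.051, limma adjusted p = 0.160). It passed the threshold without control replicate 2 (log2 fold change 0.18, limma adjusted p = 0.0419) and with voom (0.0231).

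The ratio of the 2 abundant type I chains, KRT19 over KRT18, was 1.05 and 1.01 in control and 1.23 and 1.24 in the knockdown-labelled libraries, with no overlap. KRT8 over KRT18 was 1.46 and 1.41 in control and 1.57 and 1.52 in the knockdown-labelled libraries. Neither ratio was tested, since the genes were chosen with earlier results known. KRT19 thus made up 49.8% ± 0.727 of all type I keratin FPKM in control and 54.3% ± 0.310 in the knockdown-labelled libraries.

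The order of the 3 abundant genes depends on the length used. FPKM divides by all annotated exons, which for KRT8 come to 6881 bases against 2126 in its principal transcript, a factor of 3.24. The factor was 2.06 for KRT18 and 1.68 for KRT19. In FPKM, KRT19 was slightly above KRT18 in each control library, at ratios of 1.05 and 1.01 (means 675 ± 27.0 and 659 ± 44.5). This difference was not tested. With the principal transcript in place of all exons as the length, KRT18 stood above KRT19 in control, at 1373 against 1148, and the pair was level in the knockdown-labelled libraries, at 1457 against 1468. KRT8 came first on both scales, with 3099 and 3544 on the second.

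The balance of the types can be read the same way. Summed over the family's genes with a mean of at least 1 FPKM, type II over type I was 0.725 and 0.718 in control and 0.710 and 0.683 in the knockdown-labelled libraries. The means, 0.721 ± 0.00502 and 0.696 ± 0.0186, lay close together. With the principal transcript as the length the ratio turned from below to above 1, at 1.23 ± 0.0124 and 1.21 ± 0.0317, so the deposited FPKM alone do not fix which type was in excess. On that scale the groups overlapped. Over all 55 genes, type I FPKM summed to 1358 ± 74.1 in control and 1618 ± 0.618 in the knockdown-labelled libraries, and type II FPKM to 980 ± 47.0 and 1127 ± 30.0. These sums were not tested.

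**Figure D2:**
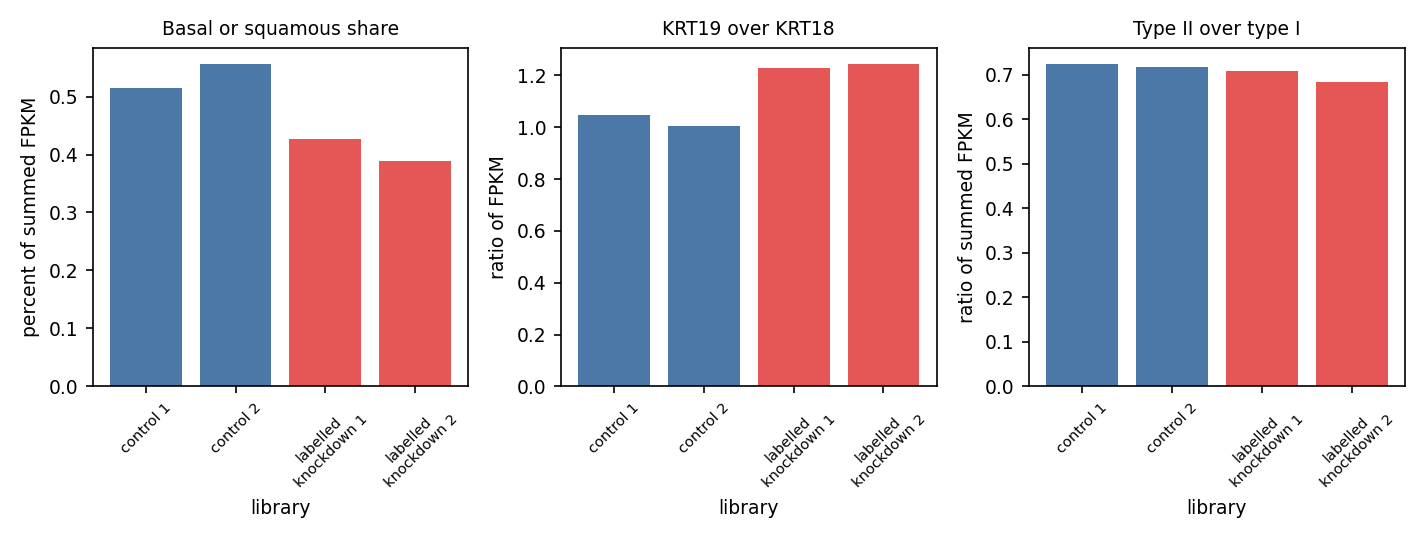
Per library (bars from 0, blue for control and red for labelled knockdown), the basal or squamous share of the summed FPKM of the 10 keratins in percent, the ratio of KRT19 to KRT18 FPKM and the ratio of summed type II to type I FPKM. The share is lower (0.389% and 0.426% against 0.515% and 0.556%) and KRT19 over KRT18 higher in both libraries labelled knockdown.

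KRT80 and KRT7, the other tested genes of the simple group, had lower values in the knockdown-labelled libraries but did not pass. KRT80, a type II keratin that is known from many epithelia and sits at the edge of its cluster, had 22.3 and 28.3 FPKM in control and 19.8 and 17.3 FPKM in the knockdown-labelled libraries. The groups did not overlap, yet the controls were further apart than control replicate 1 and knockdown replicate 1. Its log2 fold change was -0.42 (SE 0.12, limma adjusted p = 0.0583). Under 5 of 11 other settings it was called lower. These were quantile normalization (limma adjusted p = 0.0472), a mean of at least 5 FPKM (0.0203), the fit without control replicate 1 (0.0285), scaling outside the mitochondrial genome (0.0475) and voom (3.68e-05).

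KRT7, the type II chain of ductal and glandular epithelia, was low in each library, at 1.44 and 1.53 FPKM in control and 1.01 and 1.17 FPKM in the knockdown-labelled libraries. This came from 104, 123, 71 and 81 reads. The log2 fold change of -0.25 (SE 0.12) did not pass (limma adjusted p = 0.171, and 0.0683 to 0.407 over 10 other settings). KRT7-AS, an antisense gene within KRT7, had 7, 10, 10 and 5 reads, so few of the reads over KRT7 were given to it. KRT23, a type I keratin known from colon cancer, had 0 and 5 reads in control and 3 and 2 in the knockdown-labelled libraries, and no difference was detectable at this depth.

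The basal or squamous keratins were a minor part of the profile. KRT13 led them with 7.81 and 9.24 FPKM in control and 8.81 and 7.86 FPKM in the knockdown-labelled libraries. The groups overlapped, and the log2 fold change was -0.027 (SE 0.094, limma adjusted p = 0.852). Its sign turned without control replicate 2 (0.082) or knockdown replicate 2 (0.047).

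KRT17 was the one member that fell. It had 2.89 and 3.49 FPKM in control and 1.74 and 1.49 FPKM in the knockdown-labelled libraries, from 159, 215, 94 and 79 reads (ENSG00000128422, chromosome 17, 41619441 to 41624842). The groups were separate, and the log2 fold change was -0.68 (SE 0.11, limma adjusted p = 0.0129), from 3.19 ± 0.429 to 1.61 ± 0.178 FPKM. On recovered reads, with no FPKM of 1 added, voom gave -1.01. The call was lost without control replicate 2 (limma adjusted p = 0.0602) or knockdown replicate 2 (0.0540) and with no filter (0.0717). All 8 KRT17 pseudogenes lay under the filter.

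KRT15, a type I keratin of basal and stem-like cells, was under the filter. It had 0.812 and 0.633 FPKM in control and 1.10 and 1.14 FPKM in the knockdown-labelled libraries, from 101, 88, 134 and 137 reads. The groups did not overlap, and in the fit with no filter the log2 fold change was 0.30 (SE 0.12, limma adjusted p = 0.279). KRT5, the type II chain of basal cells, had 0 and 1 reads in control and 3 and 1 in the knockdown-labelled libraries, too few for a comparison.

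**Figure D3:**
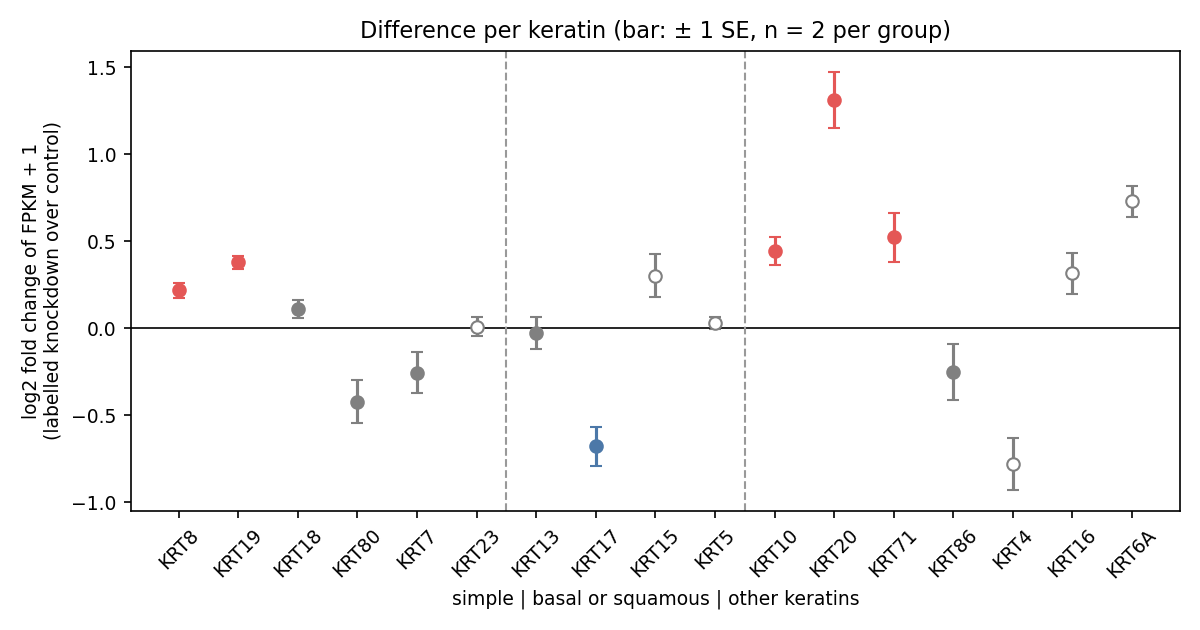
Log2 fold change of FPKM + 1 (vertical axis, labelled knockdown over control) with bars of ± 1 SE for the 10 keratins and 7 others of the family. Filled points were tested (red rose, blue fell, grey did not pass) and open points lay under the filter and come from the fit without it. KRT8 and KRT19 lie above 0 and KRT17 below.

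Set against each other, the basal or squamous genes summed to 12.4 ± 1.32 FPKM in control and 11.1 ± 0.841 FPKM in the knockdown-labelled libraries, while the simple genes summed to 2308 ± 118 and 2710 ± 27.5 FPKM. The basal or squamous sums overlapped, at 11.5 and 13.4 FPKM in control and 11.7 and 10.5 FPKM in the knockdown-labelled libraries. The simple sums, by far the larger part of the whole, did not overlap and were higher in both knockdown-labelled libraries. The basal or squamous share of the 10 genes was 0.515% and 0.556% in control and 0.426% and 0.389% in the knockdown-labelled libraries. These groups did not overlap, at 0.536% ± 0.0294 and 0.408% ± 0.0267, and no test was made of a score over chosen genes. KRT17 made up 25.6% ± 0.723 of the basal or squamous sum in control and 14.5% ± 0.501 in the knockdown-labelled libraries. The share depends on which genes count as squamous. With the epidermal and squamous keratins outside the list, KRT10 among them, added and all 55 family genes as the whole, it was 1.02% ± 0.0539 and 0.964% ± 0.0672, and the groups overlapped.

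Elsewhere in the family, 4 more keratin genes were expressed highly enough to test, and 3 of them rose, beside 16.8% of all tested genes. KRT20, 1 of the 3, reached the filter only through the knockdown-labelled libraries, at a control mean of 0.528 FPKM from 11 and 26 reads. KRT20, the type I chain of mature enterocytes, had 0.339 and 0.717 FPKM in control and 2.61 and 2.94 FPKM in the knockdown-labelled libraries, with the log2 fold change at 1.31 (limma adjusted p = 0.00551), called in each of 10 other settings. KRT10, the type I chain of cornifying epidermis, rose 1.36-fold from 9.57 ± 0.701 to 13.4 ± 1.24 FPKM (limma adjusted p = 0.0162), a call lost with no filter (0.0783), without control replicate 1 (0.0709) and without knockdown replicate 1 (0.0591). TMEM99, whose model overlaps that of KRT10, rose as well (log2 fold change 0.63, limma adjusted p = 0.0325, and 0.0129 to 0.118 with a library left out). Of the 2075 stretches of 50 bases in the KRT10 principal transcript, 9 (0.434%) occurred in TMEM99, and without a strand setting reads there cannot be told apart. KRT71, a keratin of the hair follicle's inner sheath, rose from 1.12 ± 0.256 to 2.05 ± 0.285 FPKM (limma adjusted p = 0.0476), and lost its call whichever library was left out (0.0669 to 0.185), with no filter (0.164), with a pseudocount of 0.1 (0.0518) and scaled outside the mitochondrial genome (0.0528). KRT86, a hair keratin, did not pass, at -0.25 on the log2 scale (limma adjusted p = 0.289).

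Low squamous keratins outside the list lay on both sides of control. KRT6A, KRT4 and KRT16, all under the filter, were picked out after their values were seen. KRT6A, a type II keratin of wounded and hyperproliferative epidermis, had 0 and 2 reads in control and 39 and 30 in the knockdown-labelled libraries. Per read in genes this is a ratio of 36.9 (95% counting interval 9.84 to 311), and KRT6A was called higher in the fit with no filter (limma adjusted p = 0.0339). KRT4, the partner of KRT13, had 64 and 91 reads in control and 12 and 23 in the knockdown-labelled libraries, a ratio of 0.242 (0.163 to 0.351) that did not pass that test (limma adjusted p = 0.0769). KRT16, a type I partner of KRT6A, had 9 and 20 reads against 26 and 27 (limma adjusted p = 0.240). These intervals cover counting error only. KRT1, KRT2, KRT6B, KRT6C, KRT24, KRT76, KRT77 and KRT79 were listed at 0 in every library, 8 of the 18 other keratins listed.

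Reads assigned to pseudogenes of the abundant keratins were few. The 50 KRT8 pseudogenes took 352 and 410 reads in control and 330 and 334 in the knockdown-labelled libraries, or 0.248% to 0.317% of the KRT8 reads. The 67 KRT18 pseudogenes took 24 to 52 reads per library. KRT8P12 on chromosome 3 was called lower (limma adjusted p = 0.0447), a call lost whichever library was left out (0.0631 to 0.175) and kept in 3 of 10 other settings. KRT8P3 did not pass (limma adjusted p = 0.361). The sources used here do not say how the authors placed reads that match several copies.

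The genes lie in 2 clusters. The type II cluster with KRT18 spans 52168996 to 52952901 on chromosome 12 and holds 27 keratin genes. The type I cluster spans 40654665 to 41624842 on chromosome 17 and holds 28. Within 1 Mb before and after the chromosome 12 cluster, 2 of 8 and 3 of 19 tested protein-coding genes rose and 0 and 3 fell, with median log2 fold changes of 0.0092 and -0.062. For chromosome 17 the counts were 3 of 21 and 5 of 27 risen and 5 and 5 fallen, with medians of -0.00043 and -0.033, beside 16.8% risen and 13.0% fallen over all tested genes. The nearest such neighbours on chromosome 12, ATG101 before KRT80 and EIF4B after KRT18, did not pass the test (log2 fold changes 0.016 and -0.062). On chromosome 17, TNS4, a focal adhesion protein gene before the cluster, fell (log2 fold change -0.37, limma adjusted p = 0.00189), and EIF1, a translation initiation factor gene after KRT17, did not pass (0.068). Within that cluster KRT19 and KRT17 were called in opposite directions.

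By distance between log2(FPKM + 1) profiles centred on the control mean, over 4 libraries and 7876 genes with a mean of at least 5 FPKM, WBP1L, CHMP5 and TNFAIP1 lay nearest to KRT8, and CA2, EIF5AP4 and EIF5AL1 nearest to KRT13. The distances were 0.0062, 0.012 and 0.013 for KRT8 and 0.019, 0.025 and 0.042 for KRT13. Many genes share such a profile over 4 libraries.

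Most tested genes whose proteins tie keratin filaments to junctions or organise them rose. Of 20 listed linkers, organisers and chaperones, 17 were tested, 11 rose and 1 fell, beside 16.8% and 13.0% of all tested genes. The median log2 fold change was 0.21 against 0.0011 over all tested genes. The list was chosen with earlier results of these data known, so its excess over all tested genes is no test. PLEC, encoding plectin, which links keratins to hemidesmosomes, had 49.99 and 54.6 FPKM in control and 127 and 117 FPKM in the knockdown-labelled libraries, with the log2 fold change at 1.21 (limma adjusted p = 0.00107). EPPK1 (epiplakin, which binds and bundles keratins) and FAM83H (which brings casein kinase 1 to keratins) rose 2.33 and 1.69-fold. PLEC, EPPK1 and FAM83H all lie at the end of chromosome 8, where 57 of 74 other tested genes within 2 Mb also rose, at a median of 0.51, and the part of that regional shift in their rise was not tested.

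Desmosomal genes differed in direction and in their surroundings. DSP, encoding desmoplakin, which fastens keratins to desmosomes, rose 1.46-fold, from 39.6 ± 0.690 to 58.5 ± 1.62 FPKM (limma adjusted p = 0.00140), while the median of the 11 tested genes within 2 Mb was 0.017. JUP, encoding plakoglobin, rose 1.34-fold, with 115 and 120 FPKM in control and 158 and 157 FPKM in the knockdown-labelled libraries. PKP2, a plakophilin, fell to 0.883 of control (limma adjusted p = 0.0216), a call lost whichever library was left out (0.0633 to 0.0978). PKP3, another plakophilin, did not pass (log2 fold change -0.12, limma adjusted p = 0.0558), and of the 58 other tested genes within 2 Mb of it on chromosome 11, 46 fell and 0 rose, at a median of -0.52. HSPB1, a small heat shock protein that associates with keratins, and DNAJB6, a cochaperone that binds KRT18, rose 1.78 and 1.42-fold.

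**Figure D4:**
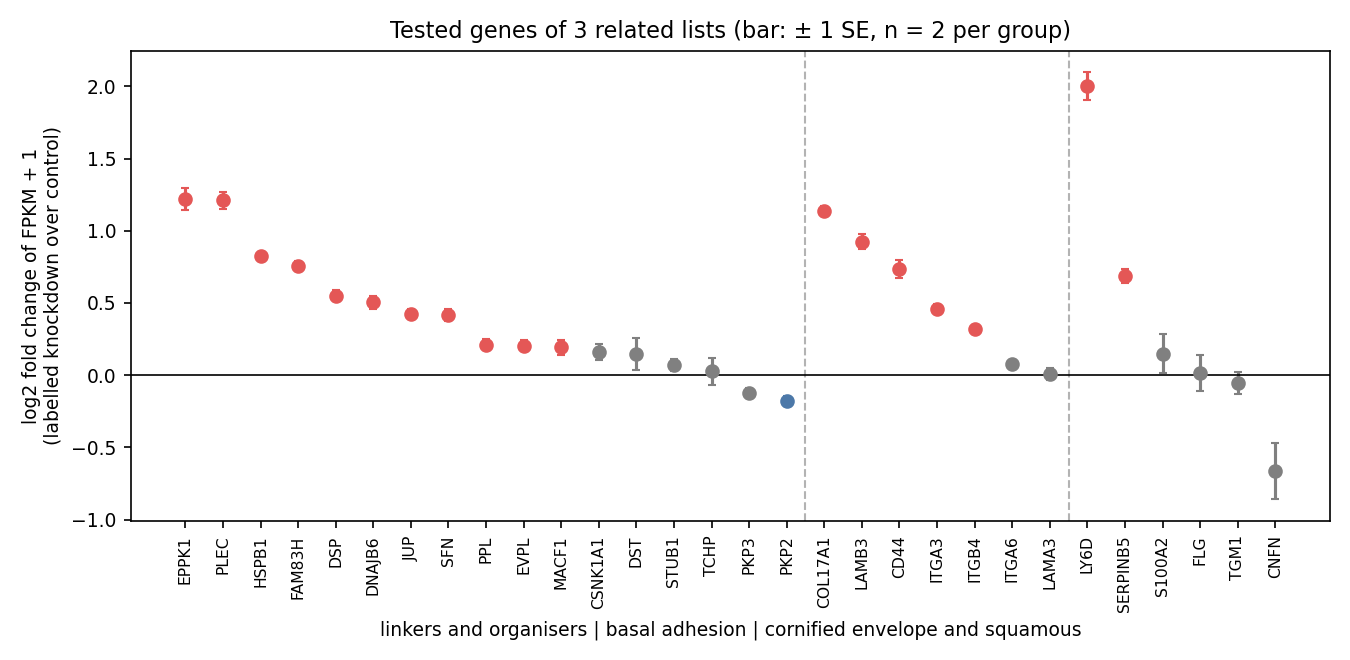
Log2 fold change of FPKM + 1 with bars of ± 1 SE for tested genes of 3 lists, namely filament linkers and organisers, basal epithelial adhesion, and cornified envelope and squamous differentiation. Red points rose, blue fell and grey did not pass. PKP2 is the 1 blue point, and in the third list LY6D and SERPINB5 rose.

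Other intermediate filaments give the setting in which the keratins changed. VIM (vimentin, the filament of mesenchymal cells) had at most 0.011 FPKM in any library, and DES, GFAP, INA, NEFL, NEFM and NEFH were under the filter too. Of 5 tested filament genes outside the keratins, 1 rose and 2 fell, beside 16.8% and 13.0% of all tested genes. LMNA, the A-type lamin of the nuclear envelope, rose 1.32-fold from 123 ± 3.58 to 162 ± 1.61 FPKM, while LMNB1 and LMNB2, the B-type lamins, fell to 0.745 and 0.822 of control (limma adjusted p = 0.00203 to 0.00477 for these 3).

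Of 9 listed basal adhesion genes, 8 were tested, 6 rose and 0 fell, beside 16.8% and 13.0% of all tested genes, with a median log2 fold change of 0.60. This list too was chosen with earlier results of these data known, so its excess is no test. NGFR lay under the filter. COL17A1, a hemidesmosome collagen, rose from 39.5 ± 0.0216 to 88.0 ± 1.95 FPKM, and LAMB3, a laminin chain, rose 1.90-fold. LAMA3, another laminin chain, had a log2 fold change of 0.0082 and did not pass. The basement membrane receptor chains ITGA3 and ITGB4 rose 1.38 and 1.25-fold, while ITGA6 did not pass (limma adjusted p = 0.115).

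Cornification genes were mostly silent. Of 22 matched genes of cornified envelope and squamous differentiation, 16 were under the filter and 10 were listed at 0 in every library, IVL, DSG3 and SERPINB3 among them. Of the 6 tested, 2 rose and 0 fell, beside 16.8% and 13.0% of all tested genes. LY6D and SERPINB5 rose 4.01 and 1.61-fold, and LY6D lies in the same region of chromosome 8, where the median of the 71 other tested genes within 2 Mb was 0.54. CNFN went the other way without a call, from 10.8 ± 1.29 to 6.56 ± 2.07 FPKM with no overlap. Its log2 fold change was -0.66 (limma adjusted p = 0.0598). TGM1, FLG and S100A2 were not called either, at -0.053, 0.015 and 0.15, and their groups overlapped.

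Among 26 transcription factors of simple, intestinal or squamous epithelium, 21 were tested, 7 rose and 6 fell, beside 16.8% and 13.0% of all tested genes, and the median was -0.012. TP63, the master factor of stratified epithelia, had 0.014 to 0.024 FPKM and SOX2 was listed at 0 in every library. EHF, an epithelial ETS factor, fell to 0.607 of control (limma adjusted p = 0.00186). FOSL1, an AP-1 subunit, ELF3, another epithelial ETS factor, and the intestinal factor CDX1 rose 1.67, 1.49 and 1.57-fold. KLF4 and KLF5 did not pass the test (log2 fold changes 0.016 and -0.012). Of the 5 other tested genes within 2 Mb of KLF5 on chromosome 13, 3 rose and 0 fell, at a median of 0.27.

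**Figure D5:**
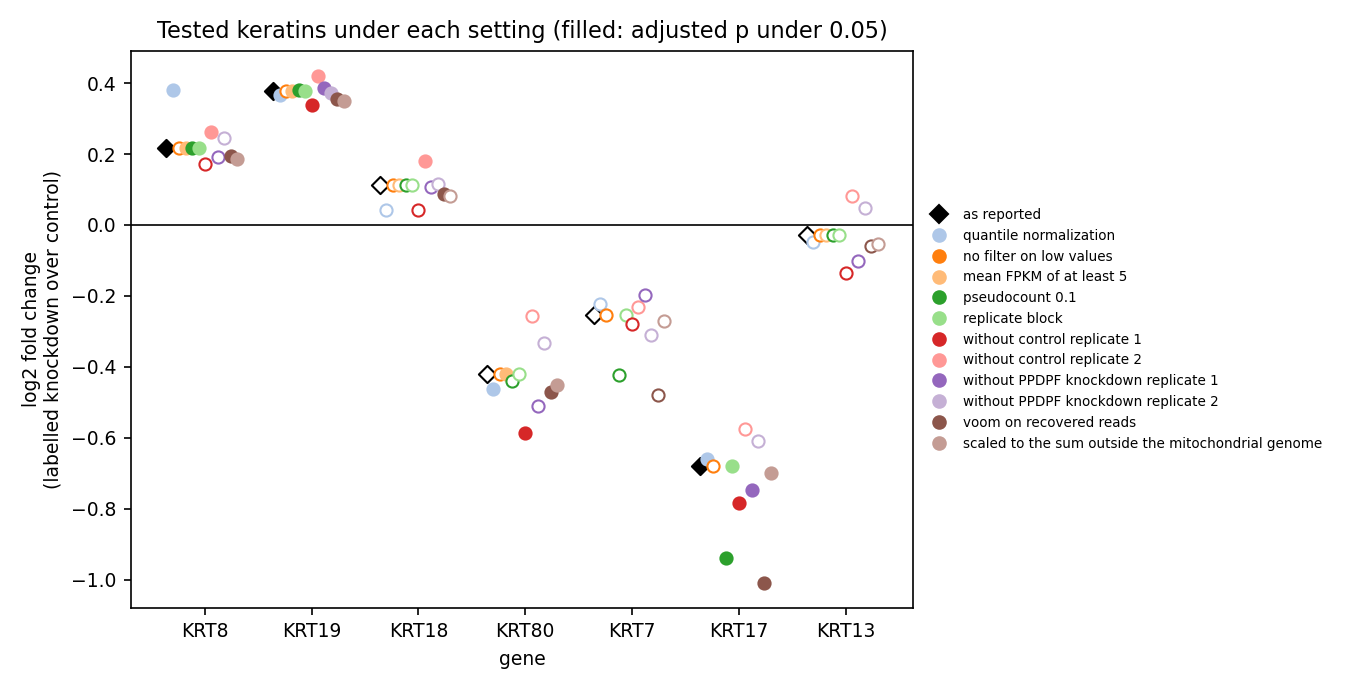
Log2 fold change (vertical axis) of the 7 tested keratins (horizontal axis) in the reported fit (diamond) and 11 other settings (circles, 1 colour each), filled where the adjusted p was under 0.05. KRT19 stays between 0.34 and 0.42, KRT17 lies between -0.57 and -1.01, and KRT13 is on both sides of 0. The pseudocount of 0.1 and voom are on scales of their own.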

How the data were processed

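RNA from 4 libraries was sequenced. The authors deposited 1 FPKM value per gene and library, per the file headers, and HISAT2 2.0.5 and hg18 appear in the submitters' processing notes. For the counter, filters and strand, settings were not given in the sources used here. All 58735 gene IDs matched GENCODE 29, so positions are on GRCh38, not the hg18 of those notes. The product of FPKM and union exon length gave whole reads for 100% of values above 0, within 0.01 of a read.

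A limma-trend fit (R 4.3.3, limma 3.58.1) of log2(FPKM + 1) tested the 12777 genes with a mean of at least 1 FPKM, with group as the only term, 2 residual degrees of freedom, two-sided, Benjamini-Hochberg adjusted. The fit was also run on simulated counts with known folds, and no result given here rests on that run. Replicates differed by more than sampling noise (chi-square per gene 2.63 and 2.46). Alternatives changed the filter, pseudocount, scaling, tool, threshold and libraries. The 10 members and the lists were chosen with earlier results of these data known. Named genes were the members, other tested keratins and their pseudogenes, up to 6 genes of smallest p per list with those that are background for a member, the nearest neighbours of each cluster and the 3 nearest profiles. Some genes and sequences of these lists are not reported here. Reading by principal transcript was added after seeing the data. Shared stretches were counted on both strands of all GENCODE 29 transcripts. Python 3.11.15, pandas 2.3.3, numpy 2.4.6, scipy 1.17.1 and matplotlib 3.10.9 were used.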

Additional observations from a re-analysis of the deposited data

How the results depend on the processing

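All genes called numbered 3814 (2152 rose, 1662 fell). With no filter they were 1868 (1134 and 734), at an adjusted p under 0.01 they were 1516 (927 and 589), and with a library left out 1970 to 2167 (1141 to 1345 and 775 to 919). With voom 2502 rose and 2709 fell, and scaled outside the mitochondrial genome 1887 and 2007, so which direction held more genes depended on the scaling. Of the keratins, 3 were called (2 rose, 1 fell). With no filter 0 were called (0 and 0), at an adjusted p under 0.01 only KRT19 was (1 and 0), with voom 5 (3 and 2), and with a library left out 1 to 3 (1 to 3 rose, 0 to 2 fell). Under quantile normalization and scaled outside the mitochondrial genome 2 fell. KRT13 changed sign without control replicate 2 (0.082) and knockdown replicate 2 (0.047), in a range of -0.14 to 0.082 with a library left out. The causes were not tested.

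The basal or squamous share (0.536% in control, 0.408% in the libraries labelled knockdown) became 1.02% and 0.964% over the whole family, 0.385% and 0.310% in reads, and 0.385% and 0.289% per principal transcript. Type II over type I (0.721 and 0.696) became 1.23 and 1.21 per principal transcript, by the lengths alone.

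With the replicate number as a block, 1899 genes rose and 1405 fell, and 3 keratins were called (2 rose, 1 fell). The labels share only a number, and same-numbered libraries did not deviate together (r = -0.0021 across genes).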
